A study of Mus musculus with 12 samples.

Results

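A set of 10 genes that drive or restrain the cell cycle was examined for accessible chromatin in mouse embryonic stem (ES) cells, namely Ccnd1, Ccnd2, Ccnd3, Ccne1, Ccna2, Ccnb1, Cdk1, Cdk2, Cdc25a and Cdkn1a. Each gene was given a window of its body plus 20 kb to either side, and every region of the merged ATAC-seq peak list that overlapped a window was taken. This gave 115 of the 170548 regions of the list. ATAC-seq maps open chromatin by letting a transposase cut accessible DNA and insert sequencing adapters there.

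The series holds 12 libraries in 6 groups of 2 libraries from 2 cell lines, whose peaks the list pools. The study also used a published data set of ZHBTc4 cells grown in serum with LIF alone, and whether its peaks entered the list is not stated. ZHBTc4 cells, in which a Tet-Off promoter drives Pou5f1 (encoding OCT4), were given 1 µg/ml doxycycline (dox) for 24 h or left untreated. 2TS22C cells, in which the same kind of promoter drives Sox2, were given the same dose for 26 h or 40 h or left untreated for the same times. All 6 groups were grown in serum with LIF, the GSK3 inhibitor CHIR99021 and the MEK inhibitor PD184352, and no group was named by cell cycle stage in the labels. Untreated cells thus also expressed the factor from a transgene promoter, and each factor was switched off in 1 line only. The list holds positions alone, so a region cannot be traced to a line, treatment or time, and dox-treated and untreated cells were not compared.

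Progress from mitosis through G1 into S phase is run by cyclin-dependent kinases, which are active only with a cyclin bound. D cyclins pair with CDK4 and CDK6 and answer to growth signals in G1, cyclin E with CDK2 drives entry into S phase, cyclin A acts in S phase and G2, and cyclin B with CDK1 drives mitosis. ES cells are known for a short G1 phase, and the genes of the later cyclins and of CDK1 carry promoter elements named CHR (cell cycle genes homology region), CCAAT box and E2F site in many mammalian cells.

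RefSeq promoter sequences (GRCm38) were matched by symbol for 7 of the 10 genes, with 9 start sites in all. Ccnd1, Ccnd2 and Ccna2 were not matched. The 5 promoter stretches below are shown because they hold the CHR, CCAAT box or E2F letters described below. Each is written 5′ to 3′ along the gene's strand and stops short of annotated untranslated exon sequence, with the matches in capitals.
Cdk1, chr10:69352939-69353088, minus strand: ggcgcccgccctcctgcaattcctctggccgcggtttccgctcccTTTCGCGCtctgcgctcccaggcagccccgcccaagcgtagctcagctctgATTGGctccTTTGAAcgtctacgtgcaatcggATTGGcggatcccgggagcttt
Cdc25a, chr9:109875429-109875578, plus strand: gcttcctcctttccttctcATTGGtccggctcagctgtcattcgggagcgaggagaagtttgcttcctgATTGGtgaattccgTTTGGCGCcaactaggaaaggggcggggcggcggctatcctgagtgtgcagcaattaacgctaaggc
Cdk2, chr10:128705052-128705179, minus strand: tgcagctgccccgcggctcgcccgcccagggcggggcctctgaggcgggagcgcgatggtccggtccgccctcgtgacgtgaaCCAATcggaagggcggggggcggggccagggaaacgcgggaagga
Ccnb1, chr13:100786571-100786720, minus strand: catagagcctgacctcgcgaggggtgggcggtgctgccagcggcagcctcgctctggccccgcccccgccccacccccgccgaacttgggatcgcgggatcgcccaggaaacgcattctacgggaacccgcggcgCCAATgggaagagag
Ccnd3, downstream start, chr17:47593317-47593466, plus strand: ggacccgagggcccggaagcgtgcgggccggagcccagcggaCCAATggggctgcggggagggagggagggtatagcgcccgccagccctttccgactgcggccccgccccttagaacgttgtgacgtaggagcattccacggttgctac

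Another 3 short stretches are shown because they hold a p53 match in an accessible region or the octamer in the center of one, again in capitals. The p53 consensus is searched since p53 is the best-known activator of Cdkn1a, and the octamer is the element that OCT4 binds.
Cdkn1a, p53 match at the main start, chr17:29090908-29090967, plus strand: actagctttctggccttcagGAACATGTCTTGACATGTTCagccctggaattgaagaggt
Cdkn1a window, p53 match in Trp53cor1, chr17:29079019-29079078, plus strand: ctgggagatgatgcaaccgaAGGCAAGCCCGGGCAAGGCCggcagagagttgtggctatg
Ccnd2, octamer match, chr6:127152567-127152614, plus strand: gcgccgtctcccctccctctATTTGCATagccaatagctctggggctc

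Across the 10 windows, 46 regions overlapped the gene bodies, 35 lay upstream and 34 downstream. By the position of its center, a region fell in an exon in 23 cases, in an intron in 45 and in intergenic sequence in 47. Regions centered over 1 kb away from every annotated transcription start site (TSS) of GENCODE M21 were counted as distal. By this measure 83 of the 115 regions (72.2%) were distal, against 82.7% of all regions of the list. Of the 32 promoter-proximal regions, 17 were nearest to a TSS of the cell cycle gene itself and 15 to a TSS of another gene in the window. The median region was 400 bp wide, from 129 bp to 1644 bp, beside 379 bp in the whole list. Its median GC content was 53.01%, beside 49.18% in the whole list. The fewest regions were at Ccna2, with 4 in 47.3 kb, and the most at Ccnd3, with 28 in the longest window of 134.6 kb.

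**Figure D1:**
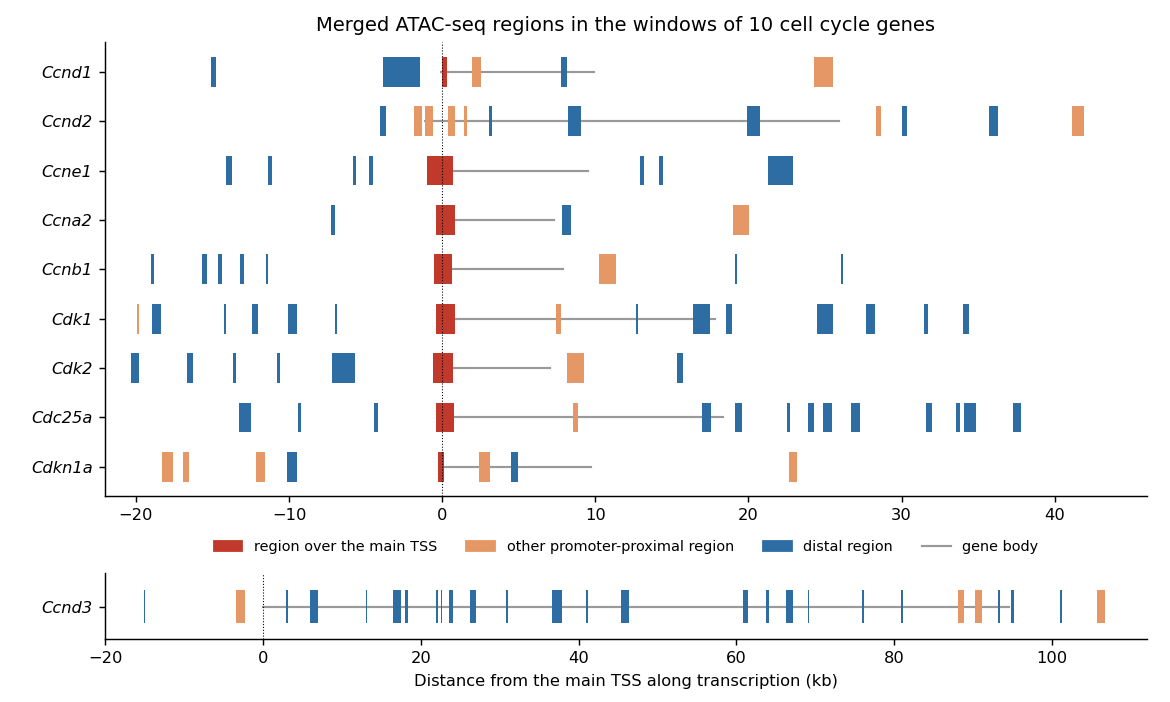
Merged regions (bars) in the windows of the 10 genes, by distance from the main TSS along the direction of transcription (kb), with Ccnd3 on a scale of its own and the gene body as a grey line. A region covers the main TSS (dotted line) in 8 genes, and Ccnd3 holds 28 regions where Ccna2 holds 4.

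The window limit decided single regions at its edge. The farthest regions kept were a 139 bp region 19.8 kb from Cdk1 and a 549 bp region 19.8 kb from Cdk2, and the nearest left out were a 449 bp region 20.2 kb from Ccnd3 and a 134 bp region 20.4 kb from Ccne1.

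The 5 genes of the E, A and B cyclins and of the CDKs in the set each had a region of 1187 to 1644 bp over the main TSS, the 5′ end of the principal coding transcript. Coding genes with a TSS region had a median width of 1136 bp, and 55.3% to 67.1% of them had a narrower region than Ccnb1, Ccna2, Cdk1 and Cdk2, so the widths at these 4 genes were near the middle of the distribution. Of the D cyclin genes, Ccnd1 had a region of 338 bp, and Ccnd2 and Ccnd3 had none over the main TSS. In all, a region covered the main TSS in 8 of 10 genes, against 62.9% of the 21853 protein-coding genes. A region of at least 1 kb covered it in 6 of 10 genes, against 41.4% of coding genes, and these 6 were all 5 E, A and B cyclin and CDK genes and Cdc25a. The limit of 1 kb was chosen after the widths had been seen. Genes are not replicates of a condition, so the classes were described and not tested.

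**Figure D2:**
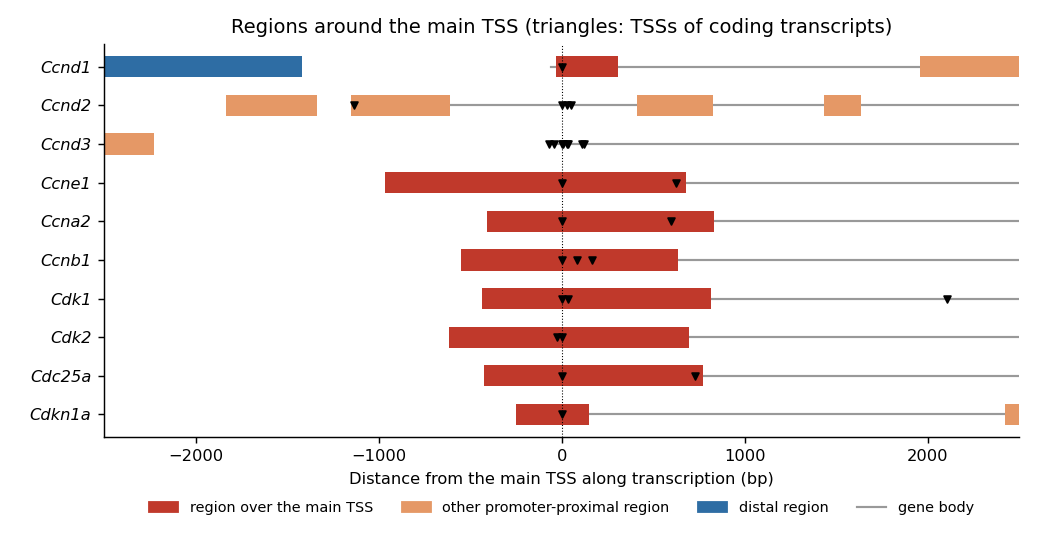
Regions within 2500 bp of the main TSS (bp along transcription), with triangles at the TSSs of coding transcripts and the gene body as a grey line. The 5 E, A and B cyclin and CDK genes and Cdc25a show regions of 1187 to 1644 bp over the TSS, whereas those of Ccnd1 and Cdkn1a are 338 and 400 bp wide, and the main TSSs of Ccnd2 and Ccnd3 lie outside any region.

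Among the D cyclins, Ccnd1 (ENSMUSG00000070348.5, chr7:144929931-144939925, minus strand) encodes cyclin D1 and is a textbook target of mitogen signalling. Its window of 50.0 kb held 7 regions, 4 of them distal. The region over the main TSS, chr7:144939560-144939897, was 338 bp wide and reached 28 bp upstream and 309 bp downstream of the start. Only 2.19% of coding genes with a TSS region had a narrower one. The widest accessible sequence lay next to it: 2 upstream regions of 1318 bp and 1105 bp, with 46 bp between them, were centered 2.08 kb and 3.34 kb before the start. Both were intergenic and GC-rich (57.2% and 61.0%). The 1318 bp region, chr7:144941288-144942605, was the widest distal region of the window. Inside the gene, a 571 bp region lay in an intron 2.24 kb after the start and a 445 bp region in an exon 7.95 kb after it. The other 2 regions were a distal one of 371 bp, 14.9 kb upstream, and one of 1274 bp at the TSS of the neighbouring gene LTO1.

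Ccnd2 (ENSMUSG00000000184.12, chr6:127125162-127152193, minus strand) encodes cyclin D2. Its window held 12 regions, with 6 distal and 6 promoter-proximal. The main TSS at 127151060 lay in a gap between regions, 610 bp from the next region upstream and 410 bp from the next downstream. The upstream one, chr6:127151670-127152211, was 542 bp wide and covered the TSS of another coding transcript at 127152193. The downstream one, chr6:127150235-127150650, was 416 bp wide and centered in an exon. Another close region of 498 bp, centered 1.58 kb upstream, held the octamer match shown above. The widest distal region, chr6:127141970-127142842, spanned 873 bp of an intron 8.65 kb after the main TSS. Together with a 197 bp region in an exon 1.53 kb after the start, the accessible sequence around the start was thus split into 4 regions of 197 to 542 bp.

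Ccnd3 (ENSMUSG00000034165.16, chr17:47505051-47599691, plus strand) encodes cyclin D3 and is by far the longest of the 10 genes, at 94.6 kb. Its window held 28 regions, of which 24 were distal. Within the gene body 21 distal regions were spread along the introns. No region lay within 1 kb of the main TSS at 47505119: the nearest ended 2.23 kb upstream, at the TSS of Taf8, and the next began 2.96 kb downstream. A downstream promoter was covered instead. The region chr17:47593166-47593986, 821 bp wide and centered 88.5 kb beyond the main TSS, covered the coding TSS at 47593470 and the RefSeq start at 47593467, before which the CCAAT box shown above lies. A second region of 802 bp, chr17:47595400-47596201, covered a further coding TSS. The widest distal region, chr17:47541773-47543002, spanned 1230 bp of an intron. With every coding TSS allowed, the D cyclin genes therefore had TSS regions of 338 bp, 542 bp and 821 bp. These were below the narrowest among the 5 E, A and B cyclin and CDK genes of the set (1187 bp). Outside the set this did not hold throughout. The main TSS regions of Ccnb2 (900 bp) and Cdk7 (798 bp) were below 1187 bp, and that of Cdk7 was also below the 821 bp of Ccnd3. Those of Ccna1, Ccne2, Cdk4 and Cdk6 were above 1187 bp.

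For the genes of the set in the class that acts from late G1 to mitosis, the widths of the TSS regions were close to each other. Ccne1 (ENSMUSG00000002068.16, chr7:38097984-38107534, minus strand), which encodes cyclin E1, had the widest at 1644 bp (chr7:38106854-38108497), reaching 963 bp upstream and 680 bp downstream. A narrower TSS region was found in 87.9% of coding genes that had one. This start also had the highest GC content of the 10 genes, 74.5% over 500 bp to either side. The other 7 regions of the Ccne1 window were distal and intergenic. One of them, chr7:38084635-38086269, was 1635 bp wide, the widest distal region in any of the 10 windows, and lay 22.1 kb after the start, past the 3′ end of the gene. The remaining 6 were 205 to 412 bp wide.

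Ccna2 (ENSMUSG00000027715.9, chr3:36564865-36572150, minus strand), which encodes cyclin A2, had the sparsest window, with 4 regions. A region of 1242 bp, chr3:36571318-36572559, covered its main TSS. RefSeq places the start 479 bp outside that region, at 36573038, so the count of covered genes depends on the annotation here. One of the other regions lay at the TSS of Exosc9. The wider distal one, chr3:36563735-36564306, spanned 572 bp and was centered in an intron of Exosc9 8.13 kb after the Ccna2 start.

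Ccnb1 (ENSMUSG00000041431.16, chr13:100778650-100786570, minus strand), which encodes the mitotic cyclin B1, had a region of 1187 bp over its start (chr13:100785935-100787121). The body held no other region. Of the 9 regions in the window, 7 were distal, and these were narrow, from 129 bp to 322 bp. The widest of them, chr13:100801948-100802269, was centered 15.5 kb upstream.

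Cdk1 (ENSMUSG00000019942.13, chr10:69335146-69352938, minus strand), the mitotic kinase, had 15 regions, 12 of them distal. The TSS region, chr10:69352121-69353371, was 1251 bp wide. The widest distal region, chr10:69335449-69336563, spanned 1115 bp in an exon near the 3′ end of the gene, 16.9 kb after the start, and a 1075 bp region followed past the end of the gene. Cdk1 had 2.60 regions per 10 kb of window, the highest of the 10 genes, and 97.8% of coding genes had fewer.

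Cdk2 (ENSMUSG00000025358.16, chr10:128697939-128705031, minus strand), the partner of cyclins E and A, had 8 regions. Its TSS region, chr10:128704308-128705616, was 1309 bp wide and the only region that overlapped the body. The widest distal region, chr10:128710689-128712172, was 1484 bp wide and lay in an intron of the neighbouring gene Pmel 6.43 kb upstream of Cdk2. Distal regions of a window can therefore lie inside other genes, and the list does not assign them to a target.

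Cdc25a (ENSMUSG00000032477.14, chr9:109875579-109893895, plus strand) encodes a phosphatase that removes inhibitory phosphates from CDKs. A region of 1198 bp, chr9:109875153-109876350, covered its start. The window held 15 regions, 13 of them distal, and 9 lay downstream of the gene. The widest distal region, chr9:109909632-109910439, spanned 808 bp of intergenic sequence 34.5 kb after the start. At 2.57 regions per 10 kb, Cdc25a followed Cdk1 in this order.

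Cdkn1a (ENSMUSG00000023067.14, chr17:29090976-29100727, plus strand) encodes p21, an inhibitor of cyclin-CDK complexes. Its window held 9 regions, of which 7 were promoter-proximal and 2 distal, but 5 of the 7 lay at a TSS of another gene. The main TSS at 29090979 was covered by a 400 bp region, chr17:29090728-29091127, and only 3.00% of coding genes with a TSS region had a narrower one. This start was also the poorest of the 10 in GC (47.4%) and in CpG, with 0.126 of the CpG number that its base composition gives. A second start, at 29093769, was covered by a 673 bp region. Over its own width that region had 58.2% GC and 0.658 of the CpG number that its base composition gives. The widest distal region, chr17:29080816-29081483, was 668 bp wide and centered 9.83 kb upstream.

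In all, 2 matches to the p53 consensus, each with 1 mismatch, were found in the whole Cdkn1a window, and both lay inside accessible regions. Up to 2 mismatches were allowed outside the core of each part of the site, and 0.576% of all regions held such a match. The first lay 51 bp before the main start and 2841 bp before the second start, within the 400 bp region. The other lay 11.9 kb upstream in an exon of Trp53cor1, a noncoding RNA gene known as a p53 target, within a 619 bp region. Of all RefSeq coding promoters, 0.0800% held a p53 match in the 200 bases before the start. A match is a description of letters and does not show binding.

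Measured over whole windows, the accessible chromatin at both classes was denser than at the median coding gene. The D cyclin genes had a median of 1.79 regions per 10 kb, with 1.40 at Ccnd1, 1.79 at Ccnd2 and 2.08 at Ccnd3. The E, A and B cyclin and CDK genes had a median of 1.70, from 0.846 at Ccna2 to 2.60 at Cdk1. All coding genes had a median of 1.05, with quartiles of 0.544 and 1.59. The ranges of the classes overlapped, and Ccna2 alone among the 10 genes fell below the median of coding genes. The covered share of the window had a median of 10.8% for the D cyclin genes, 9.83% for the E, A and B cyclin and CDK genes and 5.80% for coding genes. The regions in D cyclin windows had a median width of 416 bp, and those in the windows of the E, A and B cyclin and CDK genes 379.5 bp. With 10 kb to either side this order reversed (391 bp and 572 bp). Distal regions made up 72.3% of the 47 regions at D cyclin genes and 77.3% of the 44 at E, A and B cyclin and CDK genes.

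**Figure D3:**
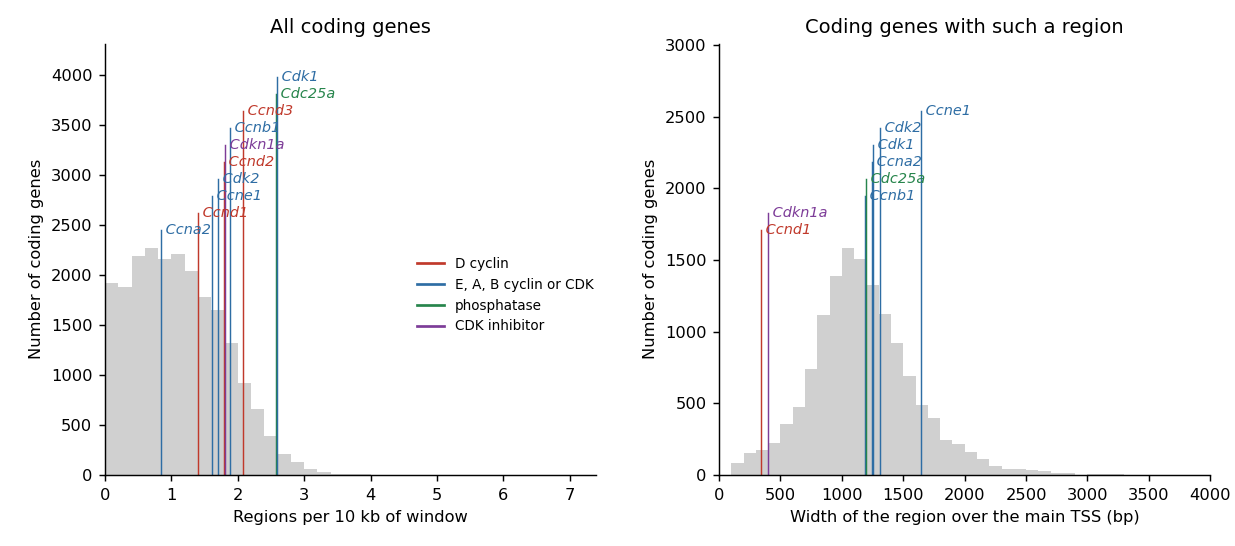
Distribution over coding genes of the number of regions per 10 kb of window (left) and of the width in bp of the region over the main TSS (right), with the cell cycle genes as coloured lines; 11 TSS regions of 4 kb or wider are not drawn. On the left 9 of the 10 genes lie above the median of 1.05, and on the right Ccnd1 (338 bp) and Cdkn1a (400 bp) stand at the narrow end.

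The other genes of the pathway were taken from a list of 40 (other E, A and B cyclins together with Ccnf, CDKs, CDC25 phosphatases and WEE kinases, CDK inhibitors, pocket proteins and E2F factors, mitotic kinases and late factors, ubiquitin ligase subunits). A region covered the main TSS in 40 of 40, against 62.9% of all coding genes. In 31 of them it was at least 1 kb wide, against 41.4% of all coding genes. Of the 13750 coding genes with a TSS region, 9043 had one of at least 1 kb. The median width at the 40 genes was 1195 bp, near the 1136 bp of coding genes. The 40 genes had a median of 1.41 regions per 10 kb, beside 1.05 for all coding genes. Mybl2 (2.86), a transcription factor of the late cell cycle, and Fzr1 (2.68), an activator of the anaphase-promoting complex, had the most. Ccna1 (0.400), a cyclin known mainly from germ cells, and Ttk (0.515), a spindle checkpoint kinase, had the fewest. All 5 of the other CDK inhibitors on the list had a TSS region of at least 1 kb, against 41.4% of all coding genes. Their median was 1584 bp, beside 1136 bp for coding genes. Cdkn1a had 400 bp at its main start and 673 bp at the second.

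Promoter letters were counted in the 200 bases before each RefSeq start, on both strands. The CHR (TTTGAA or TTTAAA) was found in 3 of the 9 promoters, those of Ccne1, Ccnb1 and Cdk1, and in 18.0% of all 21263 RefSeq coding promoters. Counted by gene, it was in 3 of the 7. In the 400 bases before the start it was in 5 of the 7 genes, with Cdk2 and Ccnd3 added, and in 37.3% of all coding promoters. The share over all counts promoters and not genes, and some genes have more than 1 start. In Cdk1 the CHR letters began 71 bp and 15 bp before the RefSeq start, in Ccnb1 42 bp and in Ccne1 15 bp. The main TSS used above lies upstream of the RefSeq start in these 3 genes. Against the main TSS, the CHR of Ccnb1, that of Ccne1 and the nearer one of Cdk1 lie downstream. The CCAAT box (CCAAT) was found in 5 of 9 promoters, against 31.1% of all: Cdk1, Ccnb1 and Cdc25a held a pair each, and Cdk2 and the downstream start of Ccnd3 held 1 each. In Cdk1 one CCAAT box stood 4 bases before the first CHR, as the printed sequence shows.

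E2F letters (TTTGGCGC, TTTCGCGC, TTTCCCGC or TTTGCCGC) were found in the promoters of Cdk1, Cdk2 and Cdc25a, that is in 3 of 9, against 1.99% of all. They began 131 bp, 140 bp and 67 bp before the start. The match in Cdk2 lies just outside the printed stretch. The GC box (GGGCGG) was found in 8 of 9, against 40.8% of all, the exception being the main start of Cdkn1a. None of the 9 promoters searched held the CRE (TGACGTCA), which is in 1.85% of all. Promoters of Ccnd1, Ccnd2 and Ccna2 were not searched. Over whole accessible regions the CRE was in 2 of 115, against 0.803% of all regions. One was the region over the main TSS of Ccna2, the other a distal region at Ccnd2. Ccnd3 was the only D cyclin gene in the sequence table, and in its 200 bases it held only the CCAAT box and the GC box of the letters named here, while in 400 bases it also held a CHR.

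**Figure D4:**
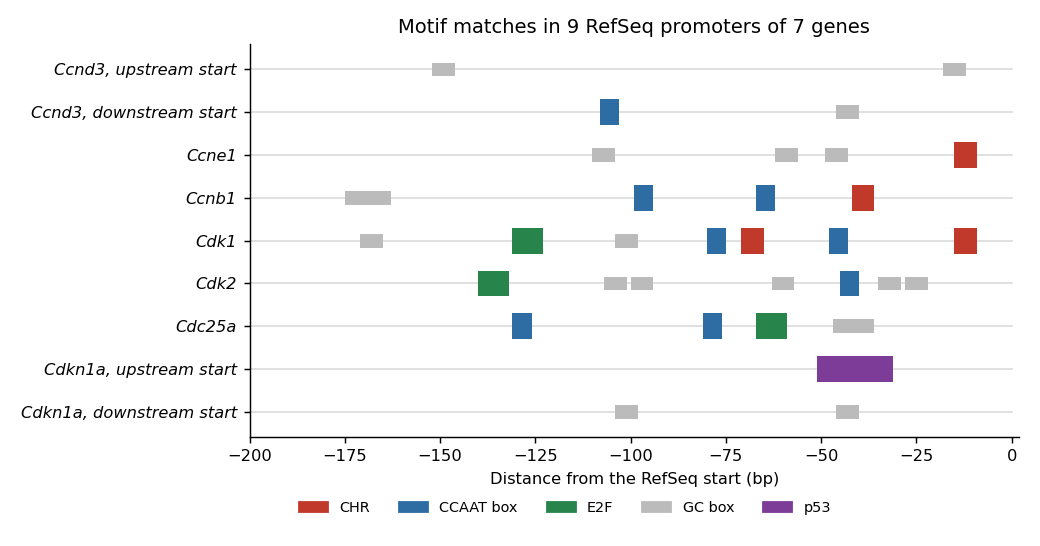
Matches in the 200 bp before each RefSeq start (bp from the start) in 9 promoters of 7 genes, as coloured blocks. CHR blocks lie in Ccne1, Ccnb1 and Cdk1, E2F blocks in Cdk1, Cdk2 and Cdc25a, and the p53 match in the upstream promoter of Cdkn1a.

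The elements of the factors that the study switched off were counted in these regions, beside their shares in all regions. The composite OCT4::SOX2 consensus, with at most 2 mismatches, was in the central 200 bp of 0 of 115 regions, which allows a share of up to 2.61%, and of 0.643% of all regions. With 115 regions these shares could not be told apart. With up to 3 mismatches it was in 4 of 115, and in 3.55% of all regions. The octamer (ATTTGCAT), whose letters are part of the composite consensus, was in the center of 1 of 115, the Ccnd2 region shown above, and of 1.97% of all regions. A SOX element (ACAATGG) was in the center of 3 of 115, against 4.32% of all. These were 2 distal regions upstream of Cdk2, of 237 bp and 549 bp, and the 209 bp region after Ccne1, which held a pair of matches. With matches in 1 and 3 regions, the octamer and SOX shares were not tested against those of the list.

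Over the whole width of a region, the GC box was in 41 of 115 (35.7%), against 20.4% of all regions. The E-box (CACGTG) was in 16 of 115 (13.9%), against 8.70%. The CHR was in 45 of 115 (39.1%), against 40.1%, and the CCAAT box in 53 of 115 (46.1%), against 42.5%. The 115 regions also held more promoter-proximal sequence than the list as a whole (27.8% against 17.3%). Its part in the GC box and E-box shares was not tested.

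**Figure D5:**
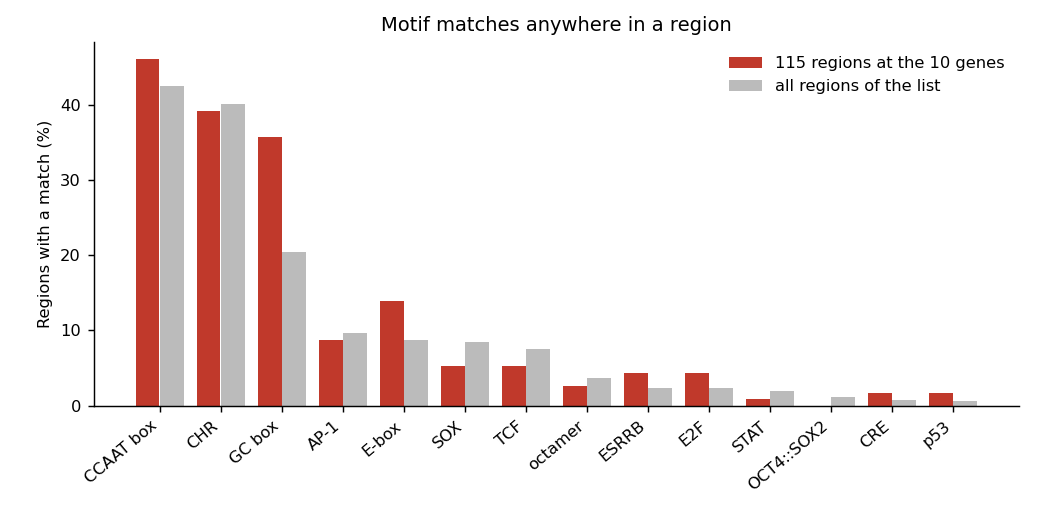
Share (%) of the 115 regions at the 10 genes (red) and of all regions of the list (grey) that hold each motif anywhere in the region. The GC box share is 35.7% against 20.4%, the CHR share 39.1% against 40.1%, and the OCT4::SOX2 consensus is in 0 of the 115 regions.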

How the data were processed

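ATAC-seq was made from 12 libraries, with 2 per group. Per the study's methods and the labels, the authors aligned reads to mm10 (GRCm38) with STAR 2.6.1c, removed duplicates with Picard, called peaks with MACS2 2.1.1.20160309 and merged the peaks of the ZHBTc4 and 2TS22C experiments with bedtools. The study then removed peaks over 5 kb wide and peaks that overlapped Input or blacklisted ones. The deposited list still holds regions of up to 58315 bp, so at least the width limit had not been applied to it. All regions of the list were used here, and overlap with Input or blacklisted peaks was not checked. Whether peaks were called per replicate, and whether published ZHBTc4 data entered the merge, is not stated. The deposited file gives positions of merged regions only (first and last base), with no count, score or other value per sample (0 columns of a single sample), so the depth of each library is unknown, no test was run and replicates could not be compared. Merging joins overlapping peaks of different libraries, so a width may be that of several peaks. The 10 genes, the pathway list and the motifs were chosen with earlier results of these data known.

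Coordinates are counted from 1. GENCODE M21 (GRCm38, the build of the files) gave genes and starts. The main TSS was that of the APPRIS principal coding transcript, then the lowest level, then the most 5′. Promoter sequences came from RefSeq (GRCm38). Named were the 10 genes, the TSS region, the widest distal region of each window, regions with a p53 or OCT4::SOX2 match, and the 2 densest and 2 sparsest pathway genes. Other regions in the text were chosen after their values were seen. On simulated data, 500 of 500 windows and 720 of 720 planted motif matches were recovered, and 0 of 720 sequences beyond the mismatch limit were called. Alternatives changed the window, the overlap rule, the width limits, whether close regions were joined, which TSSs were used, the mismatches allowed and the promoter length. The tools were pysam 0.24.0, pandas 2.3.3, NumPy 2.4.6, matplotlib 3.10.9 and SciPy 1.17.1 in Python 3.11.15.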

Additional observations from a re-analysis of the deposited data

How the results depend on the processing

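Of 63 alternatives to 12 results, 59 left the value close to that reported (within 1.5 times for counts and medians, within the 95% Wilson interval for the distal share), and 4 moved it. Some of the 59 could not move. No region in the windows was over 5 kb wide, so leaving out such regions changed nothing by construction. Allowing at most 1 mismatch could not change an OCT4::SOX2 count that was already 0. Windows of 50 kb to either side held 204 regions, and windows of 10 kb raised the median width at the E, A and B cyclin and CDK genes from 379.5 bp to 572 bp. Fewer or more regions enter by construction. With 10 kb the median width at the D cyclin genes was 391 bp, so the order of the classes in width depends on the window. With at most 3 mismatches the OCT4::SOX2 consensus was in the center of 4 regions, at Cdk1, Ccnd1, Ccnd2 and Ccnd3, against 3.55% of all regions. With promoters of 400 bases the CHR was in 5 genes in place of 3, the further ones being Cdk2 and Ccnd3. Over all coding promoters, counted by promoter and not by gene, the share was 37.3%. A region covered any coding TSS in 10 of 10 genes and any curated RefSeq TSS in 8, the last chosen after seeing the data. The 8 genes by RefSeq included Ccnd3 and not Ccna2, unlike the 8 by main TSS. Which genes of each class had a covered start therefore depends on the annotation. No paired analysis was possible because no value in the file belongs to a sample, and leaving out single replicates was not possible either. The depth of the libraries behind a region is unknown, so a stretch without a region is one where no peak was called and not one shown to be closed.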
